A study of Homo sapiens with 4 samples.

Results

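The Golgi glycosyltransferases and sulfotransferases studied here are 106 protein-coding genes out of the 58735 genes in the deposited count table. They were chosen by gene symbol: polypeptide GalNAc transferases (GALNT), core 1 galactosyltransferase and its chaperone (C1GALT), galactosyltransferases (B4GALT, B3GALT), GlcNAc transferases (B3GNT, MGAT, GCNT), sialyltransferases (ST3GAL, ST6GAL, ST6GALNAC, ST8SIA), fucosyltransferases (FUT), carbohydrate sulfotransferases (CHST) and the Golgi mannosidases MAN1A and MAN2A. The rule itself uses no expression value, but it was set with earlier results of these data known. Bulk RNA-seq was done in 4 libraries of SUP-M2, a line established from ALK-positive anaplastic large cell lymphoma, a human T cell lymphoma. In the 2 shGOLM1 libraries the titles name a hairpin RNA targeting GOLM1 and the genotype label reads as a GOLM1 knockout, and the 2 shscramble control libraries carried a scrambled hairpin. All 4 come from the same line. Separate cultures are not stated, nor how many hairpin sequences were used, so a p-value here reflects the spread between libraries, possibly a technical one.

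Glycans on secreted and membrane proteins are built stepwise in the Golgi, the compartment in which the GOLM1 protein resides. Mannosidases trim N-linked chains and MGAT enzymes start their antennae. GALNT enzymes attach the first sugar of mucin-type O-glycans and C1GALT1 extends it. Galactose, GlcNAc, sialic acid, fucose and sulfate are then added by the remaining families. On T cells and other leukocytes these caps and branches form ligands for selectins, galectins and sialic acid-binding lectins.

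Counts per library totalled 27544171 to 30889185 in shGOLM1 and 31608073 to 31972153 in shscramble. GOLM1 was at 69.6 and 69.5 CPM (counts scaled to TMM-adjusted library totals) in shGOLM1 and at 212 and 213 CPM in shscramble, lower in both shGOLM1 libraries. Its log2 fold change was -1.61 (SE 0.27), yet edgeR's quasi-likelihood test did not call it (adjusted p = 0.42). All 8 markers of anaplastic large cell lymphoma, among them ALK and TNFRSF8, were at 1 CPM or more in every library. They summed to 4464 and 1903 CPM in shGOLM1 and 2957 and 2917 CPM in shscramble, and their members went in both directions. TNFRSF8 was at 539 and 88.4 CPM in shGOLM1 and 634 and 614 CPM in shscramble, whereas PRF1, which encodes perforin, was at 621 and 145 CPM in shGOLM1 and 2.91 and 2.71 CPM in shscramble. Of 8 T cell markers, 3 were at 1 CPM or more in both shGOLM1 libraries and 4 in both shscramble libraries, while CD3G and CD8A were at 0 throughout. Epithelial, fibroblast and B cell markers had no gene at 1 CPM in both libraries of a group, and each list summed to 0.317 to 3.16 CPM in shGOLM1 and 0.0613 to 0.601 CPM in shscramble. Of the myeloid markers only CSF1R reached 1 CPM in both libraries of either group. The shGOLM1 libraries differed widely from each other: across genes their log2 CPM correlated at 0.873, against 0.989 for the shscramble pair, as a description over genes of shared libraries. Mitochondrial transcripts held 0.455% and ribosomal-protein transcripts 14.7% of the counts of shGOLM1 replicate 2, against 1.95% and 6.57% in shGOLM1 replicate 1, and 2.24% to 2.38% and 7.44% to 8.77% in shscramble. The part of these differences in the results below was not tested.

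Of the 106 genes, 56 passed the filter on low counts and were tested, 25 had some counts without passing, and 25 were at 0 in all 4 libraries. The silent ones included FUT4, FUT5, FUT6 and FUT9, MGAT3, ST6GALNAC1, ST6GAL2 and B3GNT6, which makes core 3 O-glycans. For FUT5 the 0 is uncertain, because 82.5% of its exonic bases are shared with AC024592.3 on the same strand, also at 0. A count of 0 allows up to 3 counts, or 0.0865 to 0.132 CPM in shGOLM1 and 0.0902 to 0.0919 CPM in shscramble, and these limits cover counting error only. Of the 56, 49 cleared the filter level in both groups. B3GNT4, FUT1, FUT2, FUT7, GALNT4 and MGAT4A cleared it only through shGOLM1, so for these 6 a higher value in shGOLM1 was built into the selection. CHST7 cleared it only in 1 library of each group.

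On the authors' FPKM scale, which divides by gene length, GALNT2 led the family, at 72.6 and 35.9 FPKM in shGOLM1 and 77.4 and 79.1 FPKM in shscramble. It was followed in shscramble by C1GALT1C1, B4GALT5, GALNT1, C1GALT1, MGAT4B, B3GALT6 and B4GALT3, all between 16 and 28 FPKM there. The neighbours C1GALT1C1 (28 and 24.7 FPKM), B4GALT5 (25.1 and 26.5) and GALNT1 (23.8 and 23.9) overlapped or nearly touched in the shscramble libraries, so their order is not firm. In shGOLM1 the order was less stable: C1GALT1C1 stood at 18.3 and 22.1 FPKM, B4GALT5 at 32.4 and 14.9 FPKM, and GALNT1 at 24.7 and 6.86 FPKM. Summed over role groups, the GALNT genes reached 121 and 60.3 FPKM in shGOLM1 and 125 and 127 FPKM in shscramble, and the fucosyltransferases 16.4 and 26.5 FPKM in shGOLM1 and 12.4 and 13.1 FPKM in shscramble.

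No gene of the family passed edgeR's quasi-likelihood test at an adjusted p under 0.05, in either direction, and over all 14166 genes 0% were called higher and 0% lower. At an unadjusted p under 0.05, 5 of 56 were higher in shGOLM1 (FUT1, FUT7, GALNT3, MGAT4A and ST3GAL3), where 8.2% of all genes were. Among these, FUT1, FUT7 and MGAT4A had passed the filter only through shGOLM1. In the other direction only GALNT18 was lower, where 3.58% of all genes were. DESeq2 called FUT1, FUT7 and GALNT3 higher and none lower, where it called 3.42% of all genes higher and 0.339% lower, and limma-voom called none. Of the genes DESeq2 called, only GALNT3 had passed the filter in both groups. Both shGOLM1 libraries lay above both shscramble libraries for 16 of the 56 (28.6%), against 25.2% of all genes tested, and below for 13 (23.2%), against 26.5%. Of the 16, 6 had passed the filter only through shGOLM1, and among the 49 that passed in both groups 10 lay above and 13 below. The median log2 fold change was 0.02 over the 56, -0.13 over the 49 and 0.05 over all genes tested. The libraries differed in their median log2 difference from the shscramble mean. In shGOLM1 replicates 1 and 2 it was 0.22 and -0.27 over the 56, and 0.07 and -0.77 over the 49. Over all genes tested it was 0.00 and -0.04.

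Each shGOLM1 library was also set on its own against both shscramble libraries in edgeR. Such a fit takes the spread of the shscramble pair for the single library too, and it compares libraries rather than conditions. In shGOLM1 replicate 1, 15 of 59 genes of the family tested were higher (25.4%, against 20.4% of all genes) and 10 were lower (16.9%, against 24.1%). In shGOLM1 replicate 2, 18 of 57 were higher (31.6%, against 33.3%) and 27 were lower (47.4%, against 34.1%). Of the 55 tested in both, 7 were higher in both libraries (12.7%, against 9.62% of all genes), 6 were lower in both (10.9%, against 13.9%) and 8 went in opposite directions (14.5%, against 11.2%). Without the genes that passed the filter only through shGOLM1, 5 were higher and 6 lower in both. The 7 were FUT1, FUT7, FUT11, GALNT3, MGAT1, MAN2A1 and B4GALT1. The 6 were GALNT18, ST8SIA1, FUT10, B3GALT6, CHST10 and CHST14, and the 8 were C1GALT1, MGAT5, MAN1A2, GALNT7, ST3GAL4, B4GALT4, B4GALT5 and B3GNT10.

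**Figure D1:**
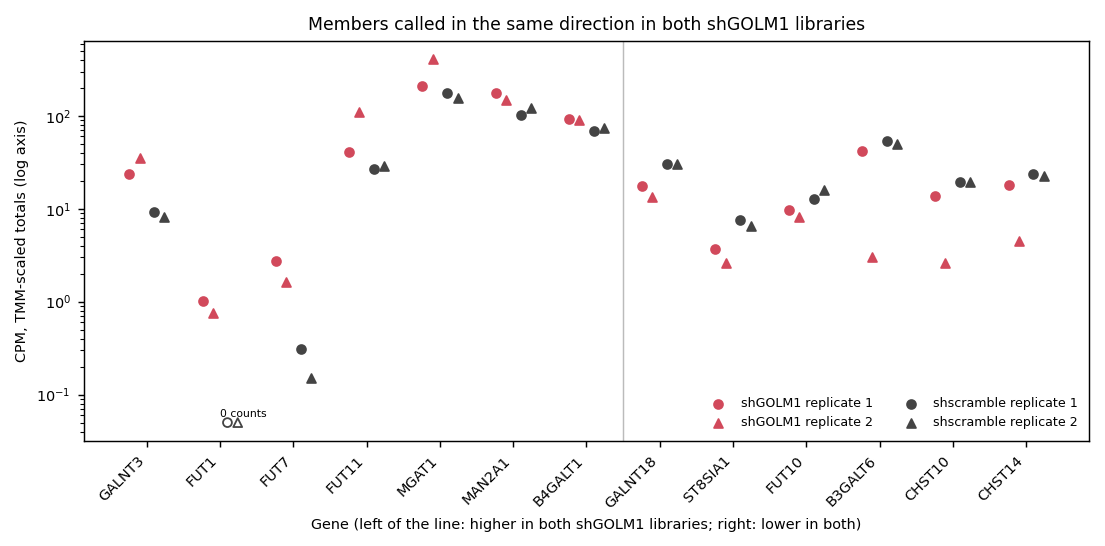
CPM on a log axis in each library for the 13 genes called in the same direction in both shGOLM1 libraries taken alone, with shGOLM1 points in red left of the grey shscramble points and open symbols for 0 counts. FUT7 stands at 2.77 and 1.63 CPM in shGOLM1 against 0.306 and 0.15 CPM in shscramble, while B3GALT6, CHST10 and CHST14 are far lower in shGOLM1 replicate 2 than in replicate 1.

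Among the fucosyltransferases, 3 of the 6 tested were higher and 1 was lower in both shGOLM1 libraries taken alone, where 9.62% of all genes were higher and 13.9% lower. Of the 3, FUT1 and FUT7 had passed the filter only through shGOLM1. FUT7, which completes the sialyl Lewis x ligand of selectins on leukocytes, was 9.62-fold higher in shGOLM1. It lies on chromosome 9 (137030174 to 137033010, GRCh38) and had 96 and 37 counts in shGOLM1 (2.77 and 1.63 CPM) and 10 and 5 counts in shscramble (0.306 and 0.15 CPM). Both shGOLM1 libraries were high and the groups did not overlap. Its log2 fold change was 3.25 (SE 0.75), and DESeq2 adjusted its p to 0.03 where edgeR gave 0.42 and limma-voom 0.463. With one library left out, its log2 fold change lay between 2.76 and 3.8. Exons of FUT7 overlap those of C9orf139 on the other strand over 39.2% of their bases, and C9orf139 itself had 14 and 19 counts in shGOLM1 and 5 and 5 in shscramble. No source used here gives the strand setting of the counting, so reads in that stretch are not assigned with certainty.

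FUT1, which makes the H antigen, lies on chromosome 19 (48748011 to 48755390). It had 35 and 17 counts in shGOLM1 (1.01 and 0.747 CPM) and 0 in both shscramble libraries, at least 9.64-fold higher when 3 counts per library are taken as the floor. DESeq2 gave it an adjusted p of 0.018, edgeR 0.42 and limma-voom 0.454. The authors' deposited table gives 0.0214, the only gene of the family under 0.05 there of 80 with a test (background 2.12% higher, 0.165% lower). FUT1 and MGAT4A were named after their values were seen, because they lie below the mean level used to choose the other named genes. FUT11 (chromosome 10, 73772291 to 73780251) was at 41.2 and 111 CPM in shGOLM1 and 26.8 and 29 CPM in shscramble, 2.73-fold higher, with a log2 fold change of 1.45 (SE 0.56, edgeR adjusted p = 0.424). Both shGOLM1 libraries were high, replicate 2 by far the more. An antisense gene, AC022400.8, lies opposite 11.6% of its exonic bases and had 16 and 87 counts in shGOLM1 and 1 and 10 in shscramble. FUT10, the closest relative of FUT11 in the family, went the other way, at 9.75 and 8.13 CPM in shGOLM1 and 12.9 and 15.8 CPM in shscramble. FUT8, which adds the core fucose of N-glycans, was at 35.3 and 15.2 CPM in shGOLM1 and 30.6 and 29.9 CPM in shscramble, high in one shGOLM1 library and low in the other.

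FUT2, the secretor enzyme, was at 0.375 and 0.615 CPM in shGOLM1 and 0.245 and 0.18 CPM in shscramble, too few counts for a firm comparison.

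The shares of FUT11 and FUT8 among the fucosyltransferase transcripts differed most in shGOLM1 replicate 2. FUT11 took 49.7% and 82.7% of the group's summed FPKM in shGOLM1 and 43.5% and 44.4% in shscramble. FUT8 took 31.2% and 8.35% in shGOLM1 and 36.5% and 33.6% in shscramble. FUT7 took 6.35% and 2.31% in shGOLM1 and 0.948% and 0.438% in shscramble, so despite its large fold change it remained a small part of the group. These shares are ratios within a library and do not depend on how libraries are scaled.

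For the genes called in the same direction in both shGOLM1 libraries, promoter windows were read from RefSeq (GRCh38.p14, 250 bases before to 50 after the start annotated there), which held 79 of the 106 genes. Shown are 2 of the higher genes, FUT7 and GALNT3, and 2 of the lower, B3GALT6 and CHST14. Capitals mark ACGTG or GCGTG on either strand (CACGT or CACGC as printed), the core letters bound by hypoxia-inducible factors. The windows are chr9:137032039-137032338 (minus strand), chr2:165794198-165794497 (minus), chr1:1231987-1232286 (plus) and chr15:40470734-40471033 (plus). Those of FUT7 and GALNT3 lie wholly inside the counted genes (137030174 to 137033010 and 165747591 to 165794682). They are therefore not upstream of the counted gene, whereas the windows of B3GALT6 and CHST14 include its listed start.
FUT7: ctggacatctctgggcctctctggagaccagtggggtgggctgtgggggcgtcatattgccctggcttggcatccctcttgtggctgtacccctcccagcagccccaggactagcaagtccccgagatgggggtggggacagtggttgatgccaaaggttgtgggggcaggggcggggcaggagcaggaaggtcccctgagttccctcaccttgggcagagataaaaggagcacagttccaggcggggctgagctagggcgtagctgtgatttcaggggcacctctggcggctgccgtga
GALNT3: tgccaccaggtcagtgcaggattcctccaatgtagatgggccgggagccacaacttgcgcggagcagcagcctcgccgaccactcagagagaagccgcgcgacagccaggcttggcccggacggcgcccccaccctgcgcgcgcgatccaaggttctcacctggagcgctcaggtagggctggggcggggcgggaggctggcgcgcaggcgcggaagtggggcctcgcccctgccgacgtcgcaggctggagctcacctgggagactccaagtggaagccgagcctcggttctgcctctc
B3GALT6: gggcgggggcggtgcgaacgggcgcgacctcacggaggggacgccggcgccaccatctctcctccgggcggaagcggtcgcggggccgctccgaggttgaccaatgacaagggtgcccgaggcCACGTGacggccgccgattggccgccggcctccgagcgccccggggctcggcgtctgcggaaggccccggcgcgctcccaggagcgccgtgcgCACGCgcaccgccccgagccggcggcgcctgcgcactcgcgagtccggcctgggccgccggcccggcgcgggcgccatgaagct
CHST14: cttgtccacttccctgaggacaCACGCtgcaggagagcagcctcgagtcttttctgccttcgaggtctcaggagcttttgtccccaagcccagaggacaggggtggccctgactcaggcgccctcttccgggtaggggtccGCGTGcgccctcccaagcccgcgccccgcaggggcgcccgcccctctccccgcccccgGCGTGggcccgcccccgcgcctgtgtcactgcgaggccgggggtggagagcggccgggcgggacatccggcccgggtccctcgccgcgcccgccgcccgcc
FUT7 and GALNT3 held no such letters in this window, while B3GALT6 and CHST14 held 3 matches each, of which a pair in B3GALT6 overlap as the palindrome CACGTG. These are the lower genes with the most matches, so the contrast depends on which genes were picked. Of the lower genes not shown, CHST10 held 1 match and ST8SIA1 0. Of the higher genes not shown, MGAT1 held 1 and FUT1, B4GALT1 and MAN2A1 held 0. The windows of MAN2A1 and ST8SIA1 also lie inside the counted genes. Of the genes higher in both shGOLM1 libraries 1 of 6 with a promoter in the table held a match, and of the lower genes 3 of 4, against 48.4% of all 35116 promoters and 57% of the 79. The windows also differed in CG pairs, with 7 in FUT7, 28 in GALNT3, 53 in B3GALT6 and 32 in CHST14, and 14 as the median of all promoters. A match is a description of letters and not a bound site, and the motif was chosen after the values were seen.

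The enzymes that start O-glycans went in both directions. GALNT3, which protects the hormone FGF23 from cleavage by glycosylating it, was 3.41-fold higher. It lies on chromosome 2 (165747591 to 165794682) and was at 23.9 and 35.1 CPM in shGOLM1 and 9.23 and 8.09 CPM in shscramble. Both shGOLM1 libraries lay above both shscramble libraries, replicate 2 higher than replicate 1. Its log2 fold change was 1.77 (SE 0.38), and DESeq2 adjusted its p to 0.0275 where edgeR gave 0.42 and limma-voom 0.463. With one library left out, its log2 fold change lay between 1.45 and 1.97. GALNT18 (chromosome 11, 11270876 to 11622005) was 1.97-fold lower, at 17.5 and 13.5 CPM in shGOLM1 and 30.7 and 30.3 CPM in shscramble, with a log2 fold change of -0.97 (SE 0.33, edgeR adjusted p = 0.42). Both shGOLM1 libraries were low.

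The most abundant GALNT genes were low in replicate 2. GALNT2 was at 578 and 286 CPM in shGOLM1 and 605 and 619 CPM in shscramble, and GALNT1 at 130 and 36.2 CPM in shGOLM1 and 123 and 124 CPM in shscramble. GALNT10 was at 119 and 55.5 CPM in shGOLM1 and 119 and 123 CPM in shscramble. In each case shGOLM1 replicate 1 was close to the controls and replicate 2 low. Of the 9 GALNT genes tested, 2 were higher and 1 lower in replicate 1 alone, and 2 were higher and 6 lower in replicate 2 alone. Of all genes, 20.4% were higher and 24.1% lower in replicate 1 alone, and 33.3% were higher and 34.1% lower in replicate 2 alone. GALNT2 still took 59.9% and 59.6% of the group's summed FPKM in shGOLM1 and 61.9% and 62.4% in shscramble. GALNT3 took 4.1% and 12.1% in shGOLM1 and 1.56% and 1.35% in shscramble. GALNT7, which acts on sites already bearing GalNAc, was at 14.4 and 1.32 CPM in shGOLM1 and 7.2 and 7.94 CPM in shscramble, above the controls in one shGOLM1 library and below in the other. GALNT14 was at 3.58 and 3.34 CPM in shGOLM1 and 4.17 and 3.58 CPM in shscramble, and GALNT15 at 1.87 and 0.439 CPM in shGOLM1 and 1.5 and 1.2 CPM in shscramble. GALNT4 was at 0.577 and 2.2 CPM in shGOLM1 and 0.245 and 0.331 CPM in shscramble, but 93.2% of its exonic bases are shared with the read-through gene POC1B-GALNT4 on the same strand, so its counts are uncertain.

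**Figure D2:**
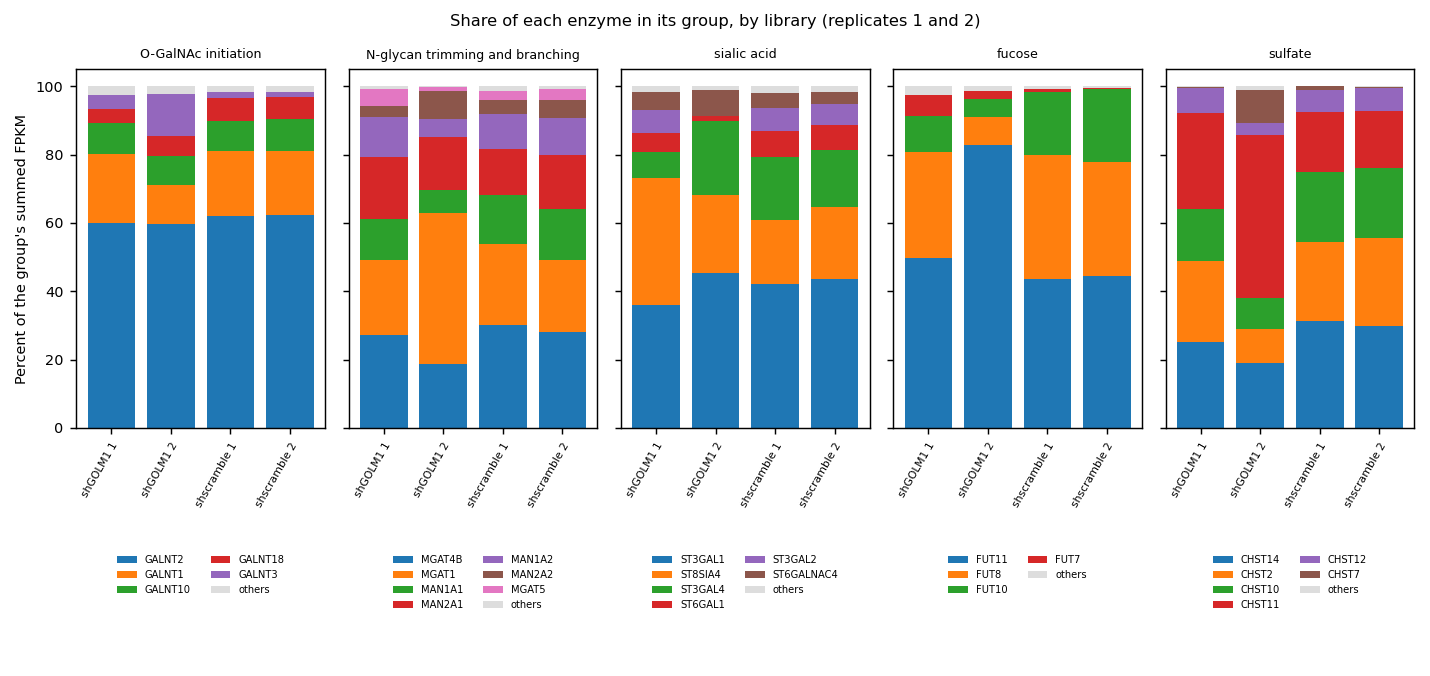
Stacked bars give the percent of each group's summed FPKM (the authors' values) taken by each gene in each library, with shGOLM1 bars left of shscramble bars and genes that never reach 4% pooled as others. GALNT2 keeps 59.6% to 62.4% of the GALNT group in all 4 libraries, while in shGOLM1 replicate 2 FUT11 takes 82.7% of the fucosyltransferase group and CHST11 47.8% of the sulfotransferase group.

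Of the 4 tested genes of O-glycan cores and branches, 0 were called in the same direction in both shGOLM1 libraries taken alone. Of all genes, 9.62% were higher and 13.9% lower in both, so 0 of so few genes sets this group apart in no way. C1GALT1, the core 1 synthase, was at 112 and 239 CPM in shGOLM1 and 174 and 173 CPM in shscramble, low in one shGOLM1 library and high in the other. Its log2 fold change was 0.01 (SE 0.45, edgeR adjusted p = 0.992), and its sign turned to -0.65 without shGOLM1 replicate 2. C1GALT1C1, the chaperone that C1GALT1 needs, was at 33.7 and 40.7 CPM in shGOLM1 and 50.5 and 44.5 CPM in shscramble, with both shGOLM1 libraries lower and a log2 fold change of -0.35 (SE 0.30, edgeR adjusted p = 0.632). GCNT1, which opens the core 2 branch on T cells, was at 1.64 and 0.527 CPM in shGOLM1 and 1.16 and 1.5 CPM in shscramble. GCNT2, the I-branching enzyme, was at 6.52 and 13.4 CPM in shGOLM1 and 7.6 and 7.97 CPM in shscramble.

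Of the 9 N-glycan processing genes tested, 2 were higher and 0 lower in both shGOLM1 libraries taken alone, where 9.62% of all genes were higher and 13.9% lower. MGAT1 starts every hybrid and complex N-glycan, and it was 1.86-fold higher in shGOLM1. MGAT1 (chromosome 5, 180784782 to 180815652) was at 208 and 410 CPM in shGOLM1 and 175 and 157 CPM in shscramble, with no overlap and replicate 2 by far the highest, and a log2 fold change of 0.89 (SE 0.43, edgeR adjusted p = 0.477). MAN2A1, the mannosidase acting after MGAT1, was at 176 and 147 CPM in shGOLM1 and 102 and 121 CPM in shscramble, with a log2 fold change of 0.53 (SE 0.29, edgeR adjusted p = 0.5). Both shGOLM1 libraries were higher. Its close relative MAN2A2 was higher in replicate 2 alone, at 26.7 and 66.1 CPM in shGOLM1 and 27.3 and 33.8 CPM in shscramble. MGAT2, which starts the second antenna, was at 1.56 and 0.395 CPM in shGOLM1 and 2.27 and 1.47 CPM in shscramble. An antisense gene with 0 counts in all 4 libraries lies opposite 91.9% of its exonic bases. With the strand setting unknown, the counts of MGAT2 are uncertain.

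The branching enzymes differed between the shGOLM1 libraries. MGAT5, which builds the branch that binds galectins and dampens T cell receptor clustering, was at 36.5 and 6.77 CPM in shGOLM1 and 14.9 and 17.7 CPM in shscramble. It was thus 2.24-fold higher in replicate 1 and 2.41-fold lower in replicate 2. Over both, its log2 fold change was 0.41 (SE 0.84, edgeR adjusted p = 0.847). MGAT4B, the main enzyme of another branch, was at 123 and 83.2 CPM in shGOLM1 and 107 and 99.9 CPM in shscramble. The trimming mannosidases MAN1A1 and MAN1A2 were at 50.1 and 28 CPM and at 91.5 and 41.9 CPM in shGOLM1, against 47.1 and 48.8 CPM and 63.2 and 68.3 CPM in shscramble. MGAT4A, the relative of MGAT4B, had 13 and 18 counts in shGOLM1 and 0 in both shscramble libraries, at least 6.4-fold higher with a floor of 3 counts per library. Of the 9 N-glycan genes tested, 4 were higher and 0 lower in replicate 1 alone, and 4 were higher and 5 lower in replicate 2 alone. The shares over all genes were 20.4% and 24.1% in replicate 1, and 33.3% and 34.1% in replicate 2.

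**Figure D3:**
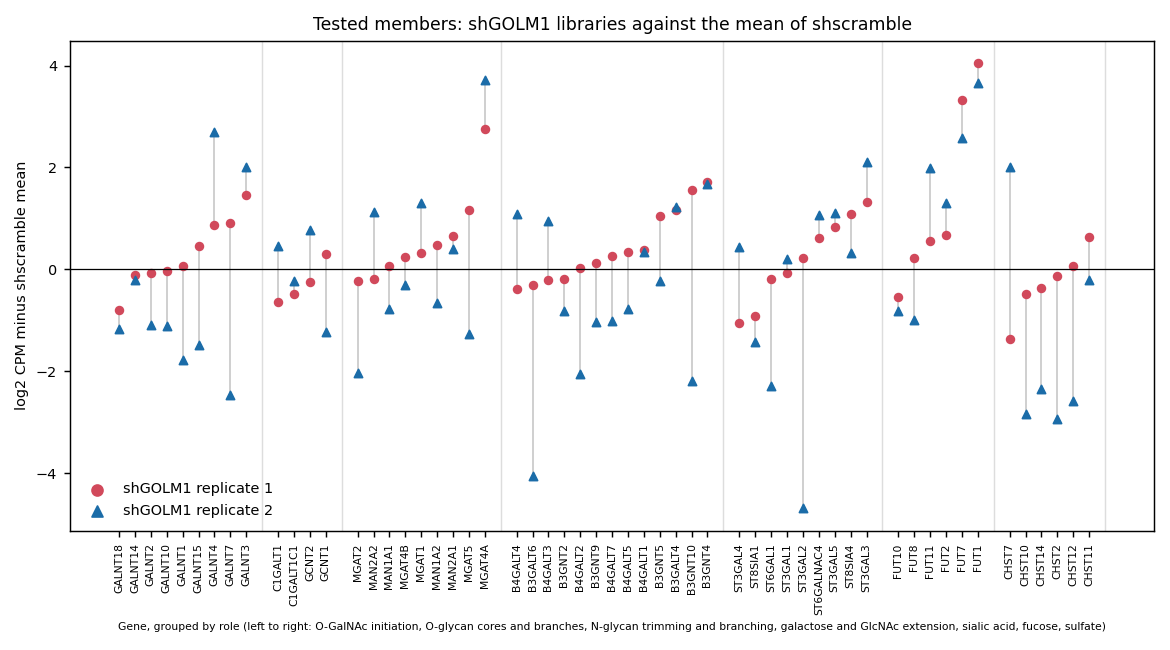
Log2 CPM minus the shscramble mean for the 56 tested genes, ordered within their role groups, with shGOLM1 replicate 1 as red circles and replicate 2 as blue triangles joined by a grey line. The pairs lie close together for GALNT18, B4GALT1, FUT1 and ST8SIA1 and far apart for ST3GAL2, B3GALT6, GALNT7 and B3GNT10.

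Among the enzymes that extend chains, B4GALT1, which adds galactose to most N-glycan antennae, had a small difference with little spread. It was at 93.2 and 91.2 CPM in shGOLM1 and 69.5 and 73.6 CPM in shscramble, 1.29-fold higher, with a log2 fold change of 0.37 (SE 0.27, edgeR adjusted p = 0.592). B4GALT3 was at 57.2 and 128 CPM in shGOLM1 and 69.1 and 63 CPM in shscramble, and 28.7% of its exonic bases lie opposite PPOX. B4GALT5, which makes lactosylceramide, the base of most glycolipids, was at 157 and 72.2 CPM in shGOLM1 and 120 and 126 CPM in shscramble. B4GALT4 was at 20.5 and 57.2 CPM in shGOLM1 and 28.1 and 25.7 CPM in shscramble. The shGOLM1 libraries thus lay on opposite sides of the controls for all 3. B4GALT2 was at 52.3 and 12.2 CPM in shGOLM1 and 52.3 and 50 CPM in shscramble, low in replicate 2 only. B3GNT2, which extends poly-LacNAc chains, was at 33.6 and 21.6 CPM in shGOLM1 and 38.6 and 37.9 CPM in shscramble, lower in both shGOLM1 libraries. B3GALT4, a ganglioside galactosyltransferase, was at 1.47 and 1.54 CPM in shGOLM1 and 0.613 and 0.631 CPM in shscramble, with no overlap and an edgeR adjusted p of 0.458. Of the other GlcNAc transferases, B3GNT10 was at 8.51 and 0.571 CPM in shGOLM1 and 2.67 and 3.04 CPM in shscramble, and B3GNT9 at 6.69 and 2.94 CPM in shGOLM1 and 5.67 and 6.65 CPM in shscramble. B3GNT5, which starts lacto-series glycolipids, was at 1.36 and 0.527 CPM in shGOLM1 and 0.337 and 1.11 CPM in shscramble, and B3GNT4 was at 0.404 and 0.395 CPM in shGOLM1 and 0.0306 and 0.15 CPM in shscramble. Of all genes tested, 25.2% lay above and 26.5% below in both shGOLM1 libraries. Among these 4 only B3GNT4 had groups that did not overlap, and it had passed the filter only through shGOLM1. All 4 share exonic bases with a gene on the other strand: 16.1% of B3GNT10 lies opposite FBXW2, which had 3683 and 1362 counts in shGOLM1 and 3090 and 3279 in shscramble, 14.9% of B3GNT9 opposite C16orf70, 16.2% of B3GNT5 opposite MCF2L2 and 20.7% of B3GNT4 opposite DIABLO. With the strand setting unknown, their counts are uncertain.

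B3GALT6 adds the second galactose of the linker that joins glycosaminoglycans to proteins. B3GALT6 (chromosome 1, 1232226 to 1235041), had 1443 and 69 counts in shGOLM1 and 1732 and 1640 counts in shscramble. It was thus 1.23-fold lower in shGOLM1 replicate 1 and 16.9-fold lower in replicate 2, with a log2 fold change of -1.20 (SE 1.18, edgeR adjusted p = 0.679). B4GALT7, which adds the first galactose of the same linker, was at 15.5 and 6.37 CPM in shGOLM1 and 13.5 and 12.3 CPM in shscramble. Of the 13 chain-extending genes tested, 3 were higher and 2 lower in replicate 1 alone, and 3 were higher and 7 lower in replicate 2 alone. Against these stood 20.4% and 24.1% of all genes in replicate 1, and 33.3% and 34.1% in replicate 2.

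The sialyltransferases' summed FPKM was 36.2 and 34.8 in shGOLM1 and 32.5 in both shscramble libraries. ST3GAL1, which caps core 1 O-glycans and was the most abundant per length in shscramble, was at 119 and 144 CPM in shGOLM1 and 123 and 127 CPM in shscramble, with overlap and a log2 fold change of 0.07 (SE 0.28, edgeR adjusted p = 0.929). ST8SIA4, a polysialic acid synthase, was at 108 and 63.6 CPM in shGOLM1 and 47.8 and 54.2 CPM in shscramble, both shGOLM1 libraries higher, with a log2 fold change of 0.75 (SE 0.38, edgeR adjusted p = 0.483). ST8SIA1, which makes the ganglioside GD3 (chromosome 12, 22063773 to 22437041), was 2.24-fold lower, at 3.72 and 2.59 CPM in shGOLM1 and 7.66 and 6.46 CPM in shscramble. Its log2 fold change was -1.16 (SE 0.46, edgeR adjusted p = 0.434). ST3GAL5, which makes its precursor GM3, was at 1.24 and 1.49 CPM in shGOLM1 and 0.582 and 0.752 CPM in shscramble, above both controls in both libraries.

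ST6GAL1, the enzyme that puts sialic acid on N-glycans in the linkage read by the B cell lectin CD22, was at 19.4 and 4.44 CPM in shGOLM1 and 22.3 and 21.8 CPM in shscramble. It was 4.96-fold lower in replicate 2 and 1.13-fold lower in replicate 1. ST3GAL2 showed the widest gap between the shGOLM1 libraries of the 56 genes, with 842 and 17 counts in shGOLM1 and 728 and 650 counts in shscramble, 28-fold lower in replicate 2. ST3GAL4, which contributes to selectin ligands with FUT7, was at 12.3 and 34.8 CPM in shGOLM1 and 27.1 and 24.6 CPM in shscramble. ST3GAL3 was at 1.59 and 2.77 CPM in shGOLM1 and 0.582 and 0.601 CPM in shscramble, with a log2 fold change of 1.87 (SE 0.63, edgeR adjusted p = 0.42). ST6GALNAC4, which adds a further sialic acid to sialylated core 1, was at 5.08 and 6.99 CPM in shGOLM1 and 3.68 and 2.95 CPM in shscramble. Both shGOLM1 libraries were higher for ST3GAL3 and ST6GALNAC4.

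Of the 6 sulfotransferases tested, 4 were lower and 1 was higher in replicate 2 alone, where 34.1% of all genes were lower and 33.3% higher. Over the 6 tested, the median log2 difference was -0.24 for shGOLM1 replicate 1 and -2.47 for replicate 2, relative to the shscramble mean, where the medians of all genes tested were 0.00 and -0.04. CHST10, which makes the HNK-1 epitope (chromosome 2, 100391860 to 100417656), was at 13.8 and 2.64 CPM in shGOLM1 and 19.2 CPM in both shscramble libraries, 1.4-fold lower in replicate 1 and 7.3-fold lower in replicate 2. CHST14, the dermatan sulfotransferase, was at 17.9 and 4.48 CPM in shGOLM1 and 23.6 and 22.6 CPM in shscramble. Their log2 fold changes were -1.23 (SE 0.84, edgeR adjusted p = 0.57) and -1.04 (SE 0.73, edgeR adjusted p = 0.578). CHST2, which sulfates GlcNAc in selectin ligands, was at 21.7 and 3.03 CPM in shGOLM1 and 22.4 and 25 CPM in shscramble. CHST12, a chondroitin sulfotransferase, was at 23.4 and 3.65 CPM in shGOLM1 and 21.2 and 23.3 CPM in shscramble.

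CHST11, the other chondroitin sulfotransferase of the same position, was not among the low ones. It was at 36.6 and 20.4 CPM in shGOLM1 and 24.2 and 22.9 CPM in shscramble, so replicate 1 was high and replicate 2 slightly low. It took 28.2% and 47.8% of the group's summed FPKM in shGOLM1 and 17.7% and 16.7% in shscramble. The group's summed FPKM was 19.4 and 6.4 in shGOLM1 and 20.9 in both shscramble libraries. CHST7 was the one called higher in replicate 2 alone, on 3 and 34 counts in shGOLM1 and 18 and 6 counts in shscramble (0.0865 and 1.49 CPM, against 0.552 and 0.18 CPM), with overlapping groups. In bulk RNA, fewer cells expressing a gene and less RNA per cell cannot be told apart.

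**Figure D4:**
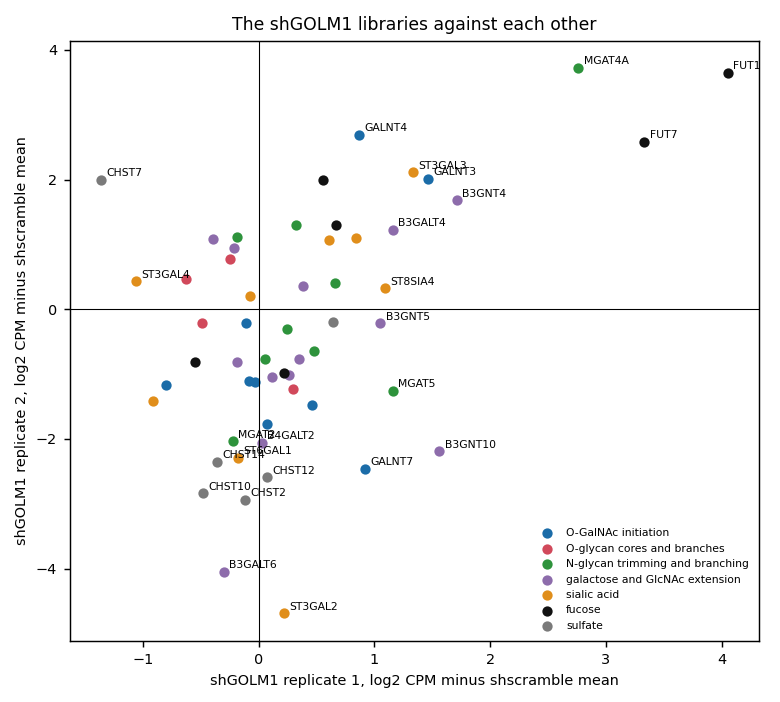
Log2 CPM minus the shscramble mean in shGOLM1 replicate 1 (horizontal) against shGOLM1 replicate 2 (vertical) for the 56 tested genes, coloured by role group. FUT1, FUT7, GALNT3 and MGAT4A lie in the upper right, and ST3GAL2, B3GALT6 and most CHST genes lie low on the vertical axis and near 0 on the horizontal one.

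Below the filter, the 25 genes with a few counts held at most 22 in any library. ST6GALNAC5 had 22 and 0 counts in shGOLM1 and 0 in both shscramble libraries. B3GNT7 had 12 and 0 in shGOLM1 and 0 in both shscramble libraries, and GALNT16 had 1 and 12 in shGOLM1 and 0 in both. Each of these 3 was present in 1 shGOLM1 library only above the floor of 3 counts. The coding sequence lies in a single exon in 32 of the 106 genes and 16 of the 56 tested.

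Neighbouring steps of the pathway could hold no gene called by edgeR at an adjusted p under 0.05, because it called 0 of all 14166 genes. Of all genes tested, 9.62% were higher and 13.9% lower in both shGOLM1 libraries taken alone. Of 24 tested genes that make sugar and sulfate donors, 5 were higher and 2 lower in both. GFPT1, which controls entry into the hexosamine pathway, was at 222 and 446 CPM in shGOLM1 and 97.2 and 95 CPM in shscramble, with a log2 fold change of 1.80 (SE 0.44, edgeR adjusted p = 0.42). NANP, a phosphatase of sialic acid synthesis, was at 14.4 and 11.9 CPM in shGOLM1 and 26.1 and 27.5 CPM in shscramble. Of 15 Golgi donor transporters and ion carriers, 2 were higher and 1 lower in both. TMEM165, needed for manganese balance in the Golgi, was at 81.3 and 31.5 CPM in shGOLM1 and 143 and 127 CPM in shscramble, and the zinc transporter SLC39A9 at 201 and 233 CPM in shGOLM1 and 133 and 140 CPM in shscramble.

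Of 27 genes of N-glycan assembly in the endoplasmic reticulum, 2 were higher and 1 lower in both shGOLM1 libraries. STT3A, a catalytic subunit of the oligosaccharyltransferase, was at 416 and 425 CPM in shGOLM1 and 239 and 251 CPM in shscramble, and ALG14 at 8.68 and 2.72 CPM in shGOLM1 and 16.1 and 13.8 CPM in shscramble. Of 16 other transferases and mannosidases, 3 were higher and 1 lower in both, with the lysosomal mannosidase MAN2B1 at 96.8 and 112 CPM in shGOLM1 and 56.9 and 57 CPM in shscramble. Its cytosolic relative MAN2C1 was at 19.6 and 94.9 CPM in shGOLM1 and 12.2 and 14.9 CPM in shscramble. Of 21 genes of heparan and chondroitin sulfate synthesis, 2 were higher and 1 lower in both. The dermatan sulfate epimerase DSE was at 18.2 and 20.9 CPM in shGOLM1 and 8.15 and 6.74 CPM in shscramble, higher in both shGOLM1 libraries while CHST14 of the same pathway was lower, and the heparan sulfate enzyme NDST2 was at 0.634 and 7.6 CPM in shGOLM1 and 0.153 and 0.391 CPM in shscramble. Of 9 sialidases and lysosomal trimming enzymes, 1 was higher and 0 lower in both. AGA, a lysosomal enzyme that frees asparagine from N-glycan remnants, was at 21.9 and 27.1 CPM in shGOLM1 and 16.8 and 14.7 CPM in shscramble, higher in both shGOLM1 libraries.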

How the data were processed

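Read counts were deposited unnormalized, 1 whole number for each gene in each library. FPKM, also computed by the authors, equals count over listed gene length and a library total of the authors' (0.851 to 1.15 times the sum of counts). FPKM values were used for levels between genes and for sums and shares of role groups, and for no test. Sums set side by side between libraries rest on that total. The authors' log2 fold change, p-value and adjusted p-value, and a mean signal per group (not used here), stand in the deposited table with no tool named. Aligner, counter and strand setting: not given in the sources used here. Builds named in the submitters' processing notes are those of the mouse (GRCm38, mm10), whereas all 58735 identifiers and coordinates equal those of GENCODE 29 on GRCh38. Dates in place of symbols (27 genes) were replaced by identifier.

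edgeR's quasi-likelihood test (edgeR 4.0.16, R 4.3.3) was fitted to all 4 libraries with TMM factors of 1.12 and 0.828 in shGOLM1 and 1.02 and 1.05 in shscramble, filterByExpr (0.32 CPM in 2 libraries), no covariate, and two-sided Benjamini-Hochberg adjustment over 14166 genes. CPM values use TMM-scaled totals, and log2 CPM a prior count of 2. Alternatives were DESeq2 1.42.0, limma-voom (limma 3.58.1), other scalings and filters, a replicate block, and each library left out. Procedures were also run on simulated data with the same spread in both groups. In the real libraries the median SD over mean of CPM was 45.9% in shGOLM1 and 7.49% in shscramble. The simulation therefore does not cover these data. Named genes were 9 always given and up to 4 per role group by smallest p among those averaging 1 CPM or more. From each neighbouring list, 2 were taken, and 1 gene so chosen is not reported here. Members and lists were chosen with earlier results of these data known. Others were added after their values were seen: the remaining tested genes, and the promoter motif. Exon overlaps and coding exons come from GENCODE 29. Figures were drawn with matplotlib 3.10.9.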

Additional observations from a re-analysis of the deposited data

How the results depend on the processing

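Under other scalings, filters and tools, 0 genes of the family passed in each direction, except that FUT1 (1 gene) passed as higher with the replicate block and 3 passed as higher in DESeq2. Leaving out one library moved the counts over 0 to 18 higher and 0 to 27 lower, the large values coming without either shGOLM1 library, where the lone library is assumed to vary like the shscramble pair. The median log2 fold change of the family ranged from -0.36 to 0.23 when one library was left out. C1GALT1, near 0 at first, turned to -0.15 with library totals alone, -0.07 with no filter, -0.09 with the block and -0.08 in limma-voom. ST3GAL1 turned to -0.04 with library totals and -0.01 with no filter, and MGAT5 to -0.04 with the block. With one library left out, the sign was followed only for the genes named by rule and for FUT1 and MGAT4A. It changed for 10 of these: C1GALT1 (-0.65 to 0.41), ST3GAL1 (-0.09 to 0.15), MGAT5 (-1.32 to 1.15), B4GALT3 (-0.22 to 0.90), CHST11 (-0.25 to 0.62), CHST12 (-2.66 to 0.06), FUT8 (-1.04 to 0.20), GCNT1 (-1.38 to 0.28), GCNT2 (-0.27 to 0.73) and MAN2A2 (-0.21 to 1.06). Other genes of the family also differed in sign between the fits without shGOLM1 replicate 2 and without replicate 1. Among them were MAN1A2 (0.46 and -0.70), GALNT7 (0.91 and -2.57) and ST3GAL4 (-1.09 and 0.38). The cause was not tested. The labels tie the replicate numbers to no shared culture. Deviations of same-numbered libraries correlated at -0.0977 across genes. This cannot decide whether they were paired, since the shscramble libraries differed little from each other (correlation 0.989). With the block, edgeR called 169 of all genes higher and 34 lower, against 0 without it. With no filter it called 175 higher and 17 lower, and DESeq2 called 485 and 48. The median of all genes moved to 0.25 with no filter against 0.05. FUT1 and MGAT4A rest on 13 to 35 counts in each shGOLM1 library.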
